A study of Rattus norvegicus with 6 samples.

Results

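The enzymes that write and erase DNA methylation and histone marks were read in the liver of rat pups at weaning. They were chosen by gene symbol in the array's annotation: the Dnmt and Tet genes, the numbered Hdac, Sirt, Kdm, Kmt, Setd, Kat and Prmt families, Ezh1, Ezh2, Ep300 and Crebbp. This gave 70 of 14217 named genes, and 65 of them lay above the brightness limit and were tested among 10372 genes. Where several probe sets named a gene, the brightest by its mean on the 6 arrays was read.

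The pups were Sprague-Dawley rats aged 3 weeks, with 3 liver samples from offspring of dams on a standard chow (control) diet and 3 from offspring of dams on a high fat diet, each on 1 Affymetrix array and here called control and high fat pups. The labels do not say whether a sample is 1 pup or a pool, name neither litter nor sex and do not give the composition or the length of the diets. Pups of 1 litter would share a dam, so the p-values measure only the spread between these samples. The question of the comparison is whether chromatin enzymes in offspring liver differ with maternal diet.

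DNA methyltransferases put methyl groups on cytosines of CpG dinucleotides, and TET dioxygenases oxidise them as a first step of their removal. Acetyltransferases loosen chromatin by acetylating histone lysines, which zinc-dependent deacetylases (HDACs) and NAD-dependent sirtuins reverse. Lysine and arginine methyltransferases place marks that activate or silence genes, and lysine demethylases take them off. These enzymes draw on S-adenosylmethionine, acetyl-CoA, NAD and alpha-ketoglutarate, metabolites that the liver makes and consumes in quantity, and for this reason they are often studied in offspring of dams on altered diets.

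All signals are log2 values after quantile normalization, differences are high fat minus control on that scale, and every adjusted p is limma's, over all 10372 genes. The hepatocyte list, with 15 of 15 genes measured, had a median difference of -0.02. Its summed linear signals were 386640 to 391967 in controls and 376719 to 391803 in high fat pups. Most of these genes are among the brightest, where quantile normalization gives the arrays nearly the same values. Apoc3, for one, was at 15.21 in control replicate 3 and in high fat replicates 1 and 3. The list therefore cannot show whether hepatocyte content was equal. High fat replicate 1 carried exocrine pancreas transcripts: the summed signal of 14 such genes was 63496 there against at most 4249 in controls, and Prss1, a trypsinogen, was at 13.08 against 4.10 to 5.30 elsewhere. In high fat replicate 3, Xist, which coats the inactive X, was at 4.45 against 12.46 to 13.31 in the other arrays, and the Y-linked Eif2s3y was at 11.14 against at most 3.99. Control replicate 3 had the largest 3' minus 5' signal of Actb and Gapdh, a measure of RNA integrity, at 3.06 against 1.92 to 2.46 elsewhere. In bulk liver, fewer cells of a type and less RNA per cell cannot be told apart.

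No enzyme of the group passed an adjusted p under 0.05, where 0.0386% of all genes tested did. The smallest adjusted p was 0.222, for Ezh2. At an unadjusted p under 0.05 there were 6 of 65, 2 higher and 4 lower in pups of high fat dams, which is 9.23% beside 14% of all genes. Higher calls made up 3.08% of the members and 6.55% of all genes, lower calls 6.15% and 7.49%. The groups did not overlap in 14 of 65 (21.5%, beside 20.8% of all genes), 6 higher (9.23% beside 9.26%) and 8 lower (12.3% beside 11.6%). In both kinds of count the members were near or below the share over all genes.

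Differences were small throughout. They ran from -0.47 for Hdac8 to 0.50 for Setd1b, so that 0 of 65 members reached 1.5-fold, beside 9.76% of all genes, and 6.69% of all genes did so at an unadjusted p under 0.05. The median difference was -0.04 with 29 of 65 higher (44.6%, beside 46.9% of all genes), against -0.02 over all genes, and the median size of a difference was 0.15 against 0.19. The 95% interval of the difference lay within 2-fold either way for 63 of 65 members (96.9%), beside 80.4% of all genes. The exceptions were Prmt3 (-0.91 to 1.37) and Hdac11 (-1.16 to 0.62), the members that varied most within groups. The median SE of a difference was 0.17 for the members and 0.18 over all genes.

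**Figure D1:**
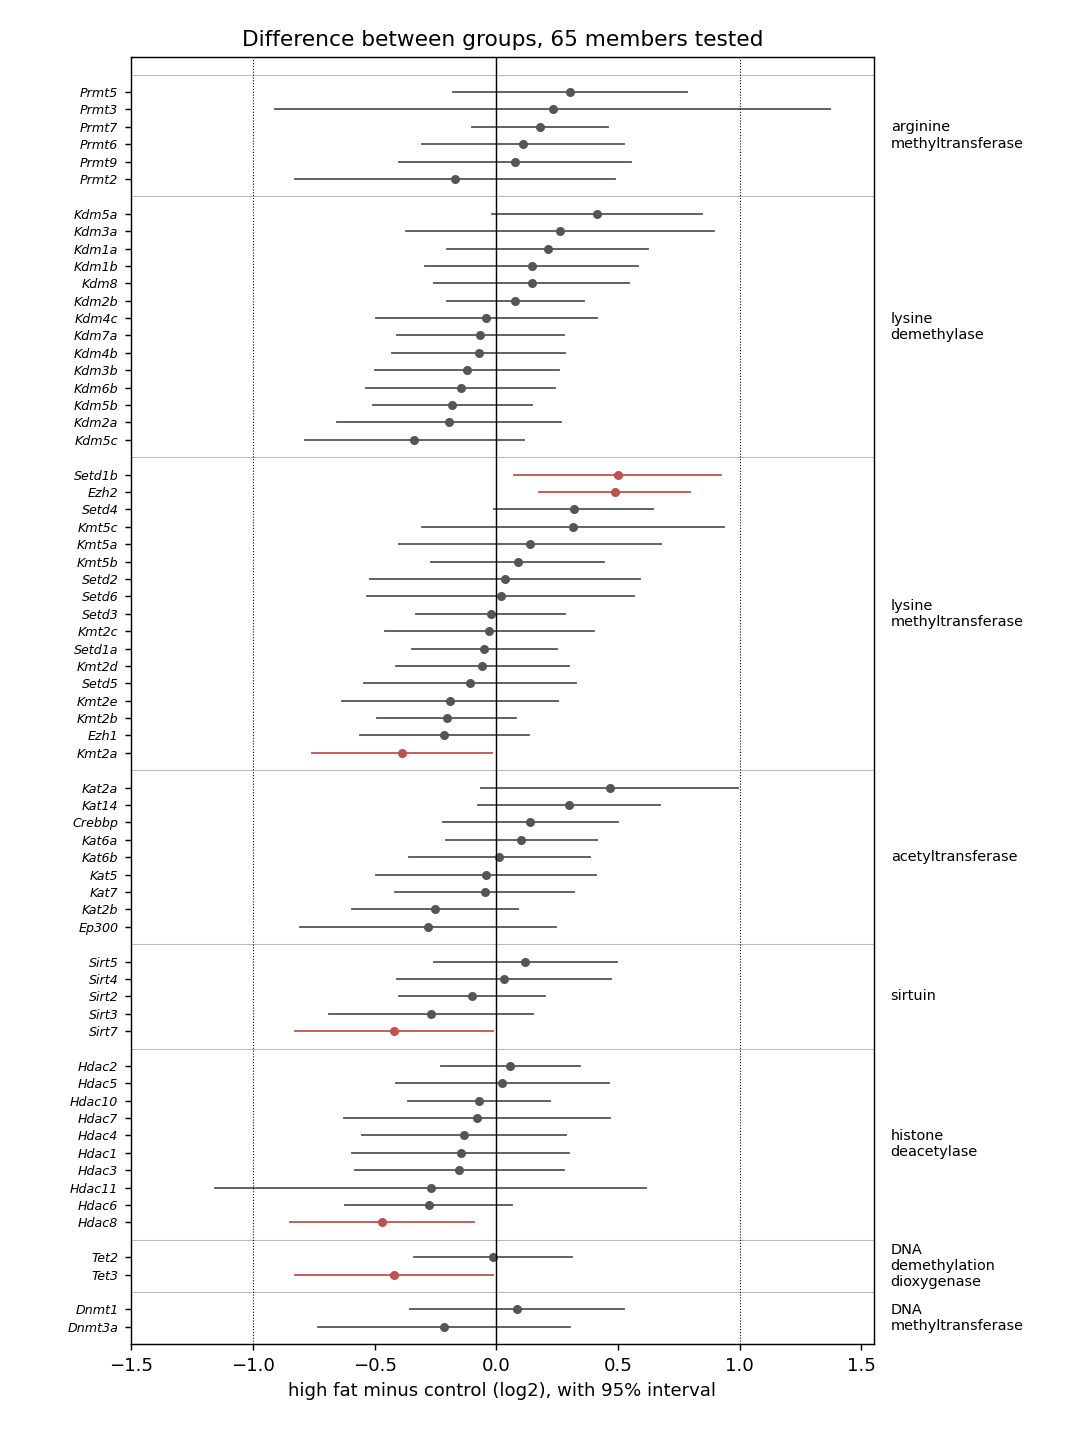
Difference between group means (high fat minus control, log2) of each of the 65 members tested, with its 95% interval from limma, grouped by enzyme class; dotted lines mark 2-fold, and red marks an unadjusted p under 0.05. The points lie between -0.47 and 0.50, and the intervals of Prmt3 and Hdac11 alone cross a dotted line.

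**Figure D2:**
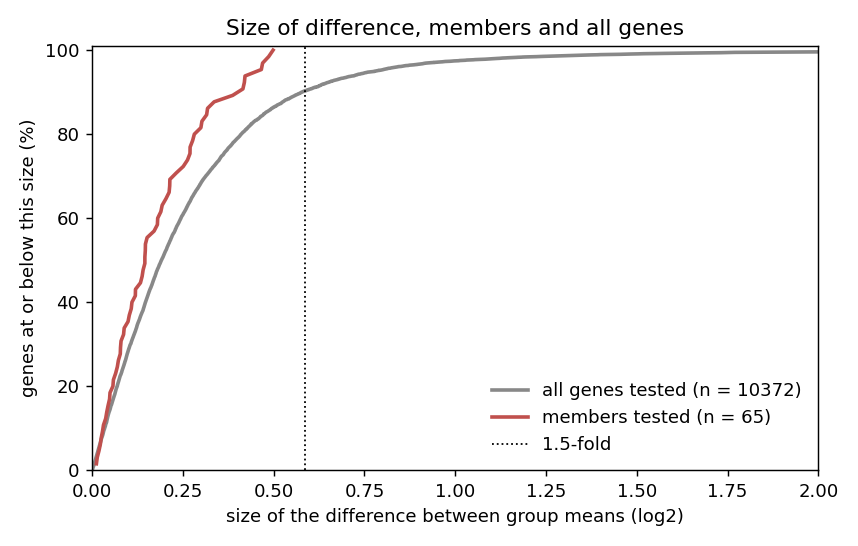
Cumulative share of genes (vertical axis, %) by size of the difference between group means (horizontal axis, log2, cropped at 2) for the 65 members in red and all 10372 genes in grey. The members' curve reaches 100% before the dotted 1.5-fold line, which 9.76% of all genes pass.

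The stretch before the start of 4 genes is shown for the members with the smallest unadjusted p in each direction for which a promoter was in the table used, Ezh2 and Setd1b among the higher and Hdac8 and Sirt7 among the lower. Each is 250 bases upstream of the annotated start from RefSeq on build GRCr8, 5′ to 3′ on the gene's strand, with CpG dinucleotides, the substrate of the Dnmt enzymes, in capitals. Methylation was not measured here.
Ezh2, chr4:77687184-77687433, minus strand: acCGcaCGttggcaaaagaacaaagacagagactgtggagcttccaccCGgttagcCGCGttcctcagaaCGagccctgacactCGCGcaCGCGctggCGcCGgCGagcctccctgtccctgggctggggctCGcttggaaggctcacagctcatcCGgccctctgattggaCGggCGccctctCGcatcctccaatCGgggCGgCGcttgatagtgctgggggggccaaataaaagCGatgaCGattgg
Setd1b, chr12:39081872-39082121, minus strand: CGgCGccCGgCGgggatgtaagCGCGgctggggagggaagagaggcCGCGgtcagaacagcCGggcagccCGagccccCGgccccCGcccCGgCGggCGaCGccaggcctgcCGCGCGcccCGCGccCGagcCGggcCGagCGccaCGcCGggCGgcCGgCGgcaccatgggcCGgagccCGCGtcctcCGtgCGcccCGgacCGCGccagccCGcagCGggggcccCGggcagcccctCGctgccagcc
Hdac8, chrX:71632866-71633115, minus strand: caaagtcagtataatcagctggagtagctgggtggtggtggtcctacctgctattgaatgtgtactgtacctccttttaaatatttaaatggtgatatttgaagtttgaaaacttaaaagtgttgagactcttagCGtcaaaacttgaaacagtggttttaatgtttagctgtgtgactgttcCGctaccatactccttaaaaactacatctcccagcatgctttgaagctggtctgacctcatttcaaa
Sirt7, chr10:106401499-106401748, minus strand: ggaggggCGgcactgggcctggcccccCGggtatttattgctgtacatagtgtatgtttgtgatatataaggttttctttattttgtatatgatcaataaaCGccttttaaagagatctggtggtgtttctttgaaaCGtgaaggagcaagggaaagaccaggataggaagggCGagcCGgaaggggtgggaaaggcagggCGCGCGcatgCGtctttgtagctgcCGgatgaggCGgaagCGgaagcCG

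These windows differed widely in CpG. Setd1b held 42 CpG and 84.8% G or C, Ezh2 held 23 and 63.6%, Sirt7 held 14 and 51.6%, and Hdac8 held 2 and 38.8%. Among the 70 members, 59 had a promoter in the table, 80 promoters in all, with a median of 18 CpG (quartiles 12 and 24.25) against 5 (quartiles 2 and 15) over all 33469 promoters. The GC box GGGCGG, read on both strands, was in 58.8% of member promoters and 30.5% of all, and CCAAT, likewise on both strands, in 40% and 34%. The motifs can share bases, since the reverse of CCAAT ends in GG. Ezh2 held 1 GGGCGG and 3 CCAAT, Setd1b held 2 and 0, Sirt7 held 1 and 0, and Hdac8 held neither.

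Among the enzymes of DNA methylation, Dnmt1, which copies methylation to the new strand after replication, had nearly the same level in both groups. It was at 8.54, 8.30 and 8.26 in controls and at 8.52, 8.13 and 8.72 in high fat pups, a difference of 0.09 (SE 0.19, 95% interval -0.35 to 0.53, adjusted p = 0.873). The highest value was in high fat replicate 3 and the lowest in high fat replicate 2, so the groups overlapped fully. Dnmt3a, which methylates new sites, was at 8.78, 9.05 and 9.38 in controls and at 9.03, 8.51 and 9.02 in high fat pups, a difference of -0.21 (SE 0.22, adjusted p = 0.696). Again high fat replicate 2 was lowest and the other high fat arrays lay inside the control range. Dnmt3b, the other de novo enzyme, was dim, at most 3.78 on any array, and was not tested.

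Of the TET enzymes, Tet3 and Tet2 were tested, and whether they differ from each other was not. Tet3 was at 8.59, 8.90 and 9.09 in controls and at 8.52, 8.26 and 8.54 in high fat pups. Every high fat array lay below every control array, by 0.05 at the closest, for a difference of -0.42 (SE 0.17, 1.34-fold lower, unadjusted p = 0.0446, adjusted p = 0.345). Its 2 other probe sets did not follow, at 0.04 (SE 0.21) and 0.35 (SE 0.32), so the sign of its difference rested on the probe set read. With 1 array left out its unadjusted p was under 0.05 only without control replicate 1, at 0.0151, and it was 0.0678 and 0.0623 without high fat replicates 1 and 3. With the 3' minus 5' covariate the difference was -0.25 (unadjusted p = 0.134). Tet2 was at 9.10, 9.18 and 8.92 in controls and at 9.11, 8.92 and 9.12 in high fat pups, a difference of -0.01 (SE 0.14, 95% interval -0.34 to 0.31). Tet1 was dim, between 2.46 and 4.76, and was not tested.

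Of 10 zinc-dependent deacetylases tested, 8 were lower and 2 higher (80% lower, beside 53.1% of all genes), with a median of -0.14, and in 8 of 10 the groups overlapped. An unadjusted p under 0.05 was reached by 1 of them (10%, beside 14%), and the class as a whole was not tested. The class median was at -0.15, -0.13 and -0.15 in the high fat arrays around the control mean. In controls it was at -0.02, -0.01 and 0.02, near 0 because deviations were taken from their mean. Other classes were less even across the high fat arrays, such as arginine methyltransferases (0.31, 0.19 and -0.05) and sirtuins (0.02, -0.15 and -0.28). Lysine methyltransferases were as even, at 0.01, 0.03 and 0.03. Hdac8, an X-linked class I deacetylase, had the largest difference of the class. It was at 8.42, 8.17 and 7.91 in controls and at 7.72, 7.69 and 7.68 in high fat pups, -0.47 (SE 0.16, 1.38-fold lower, unadjusted p = 0.0223, adjusted p = 0.288). The high fat pups were almost equal to each other while controls were spread (SD 0.02 and 0.26, n = 3 each), and the difference was -0.34 without control replicate 1 (unadjusted p = 0.0642). The unadjusted p was also above 0.05, at 0.0529 to 0.0593, when control replicate 2, high fat replicate 2 or high fat replicate 3 was left out. Hdac6, a mostly cytoplasmic enzyme that deacetylates tubulin, was at 9.21, 8.97 and 9.17 in controls and at 8.96, 8.66 and 8.90 in high fat pups, apart by 0.01 at the closest (-0.28, SE 0.14, adjusted p = 0.450).

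The deacetylases of the large corepressor complexes showed no separation. Hdac1 was at 8.84, 8.46 and 8.32 in controls and at 8.18, 8.41 and 8.60 in high fat pups (-0.15, SE 0.19), with overlapping groups. Its second probe set was at -0.53 (SE 0.24, unadjusted p = 0.0651), also overlapping. Hdac2, its close relative, varied little, at 11.14 to 11.17 in controls and 11.15 to 11.32 in high fat pups (0.06, SE 0.12). Hdac3, the catalytic unit of the NCOR complex that represses lipid genes in liver, was at 9.54, 9.89 and 9.29 against 9.43, 9.53 and 9.31 (-0.15, SE 0.18, 95% interval -0.58 to 0.28). Hdac11 was at 6.80, 7.41 and 8.01 in controls and at 7.54, 6.53 and 7.35 in high fat pups, with an SD of 0.60 and 0.54 (n = 3 each) and a difference of -0.27 (SE 0.37). The class IIa genes Hdac4, Hdac5 and Hdac7, whose proteins shuttle between nucleus and cytoplasm, were at -0.13, 0.02 and -0.08, and Hdac10 at -0.07.

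Of the sirtuins, Sirt7, a nuclear enzyme of the nucleolus, was lower in all high fat arrays. It was at 9.43, 9.34 and 9.88 in controls and at 9.17, 9.15 and 9.07 in high fat pups, -0.42 (SE 0.17, 1.34-fold lower, unadjusted p = 0.0446, adjusted p = 0.345). Control replicate 3, the array with the largest 3' minus 5' signal, was well above its group, and the difference was -0.26 (unadjusted p = 0.106) without it and -0.28 (unadjusted p = 0.145) with that signal as a covariate. With 1 array left out the unadjusted p was under 0.05 in 1 case, at 0.0296 when control replicate 2 was dropped, and it was 0.0787 without high fat replicate 1 and 0.113 without replicate 3. Sirt3, the main deacetylase of mitochondria, was at 11.18, 11.40 and 11.17 in controls and at 11.27, 10.71 and 10.97 in high fat pups, where replicate 1 lay inside the control range (-0.27, SE 0.18, adjusted p = 0.546). It was -0.41 (unadjusted p = 0.0524) without high fat replicate 1 and -0.13 (unadjusted p = 0.472) without high fat replicate 2. Sirt2 (-0.10), Sirt4 (0.03) and Sirt5 (0.12) differed by less than their SE. Sirt6 was under the brightness limit as a mean, between 2.94 and 6.39 on single arrays, and was not tested.

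Acetyltransferases went both ways, 5 higher and 4 lower of 9 (44.4% lower, beside 53.1% of all genes), with a median of 0.01. None was at an unadjusted p under 0.05, beside 14% of all genes. Kat2a and Kat2b, the paralogous enzymes GCN5 and PCAF, had differences of opposite sign on the probe sets read, while Kat2b turned to 0.38 with the mean of all its probe sets. Kat2a was at 7.70, 7.48 and 8.12 in controls and at 7.93, 8.51 and 8.26 in high fat pups (0.47, SE 0.22, unadjusted p = 0.0752), with high fat replicate 1 below control replicate 3. It was 0.62 (unadjusted p = 0.0366) without high fat replicate 1 and 0.64 (unadjusted p = 0.0240) without control replicate 3. Kat2b was at 11.49, 11.19 and 11.42 in controls and at 11.16, 10.97 and 11.22 in high fat pups (-0.25, SE 0.14, unadjusted p = 0.124), with high fat replicate 3 above control replicate 2. The difference between these paralogs was not tested. Kat14, of the ATAC complex, was the only acetyltransferase whose groups did not overlap, at 8.63, 8.81 and 8.97 against 9.31, 8.999 and 8.99 (0.30, SE 0.16), and its second probe set was at 0.31 with overlap.

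The coactivators p300 and CBP did not separate. Ep300 was at 10.41, 10.54 and 11.03 in controls and at 10.70, 10.27 and 10.17 in high fat pups (-0.28, SE 0.22, adjusted p = 0.619). Crebbp was at 10.22, 9.89 and 10.12 in controls and at 10.21, 10.38 and 10.07 in high fat pups (0.14, SE 0.15), while its 3 other probe sets above the limit lay between -0.25 and -0.14, and the groups did not overlap in the one at -0.25. Kat5, Kat6a, Kat6b and Kat7, of the MYST family, were at -0.04, 0.10, 0.01 and -0.05.

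Of 17 tested genes grouped by symbol with the lysine methyltransferases, 8 were higher and 9 lower (52.9% lower, beside 53.1% of all genes), with a median of -0.02. An unadjusted p under 0.05 was reached by 3 (17.6%), near the 14% of all genes. Ezh2, the Polycomb enzyme that trimethylates histone H3 at lysine 27, was at 7.21, 7.18 and 7.07 in controls and at 7.74, 7.49 and 7.68 in high fat pups. The lowest high fat pup stood above the highest control, with means of 7.15 ± 0.07 and 7.64 ± 0.13 (SD, n = 3), a difference of 0.49 (SE 0.13, 1.40-fold higher, 95% interval 0.18 to 0.80, unadjusted p = 0.0077, adjusted p = 0.222). With any 1 array left out it stayed between 0.43 and 0.56, at an unadjusted p of 0.0081 to 0.0307. Its 2 other probe sets were at 0.51 (SE 0.32) and 0.26 (SE 0.31), with overlapping groups.

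Ezh1, the paralog that prevails in resting tissue, leaned the other way. It was at 8.86, 9.16 and 8.93 in controls and at 8.84, 8.86 and 8.61 in high fat pups, a difference of -0.21 (SE 0.15, adjusted p = 0.562), with the groups apart by less than 0.01. A second probe set was at -0.27 (SE 0.16). Whether Ezh1 and Ezh2 differ in response was not tested.

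Setd1b, a catalytic unit of the COMPASS complexes that methylate histone H3 at lysine 4, had the largest positive difference. It was at 10.72, 10.45 and 10.92 in controls and at 11.06, 11.09 and 11.44 in high fat pups, 0.50 (SE 0.18, 1.41-fold higher, unadjusted p = 0.0279, adjusted p = 0.302). High fat replicate 3 was highest, and without it the difference was 0.37 (unadjusted p = 0.0958). Without control replicate 2, the lowest, it was 0.38 (unadjusted p = 0.0896), and without control replicate 1 it was 0.51 (unadjusted p = 0.0559). Its paralog Setd1a was at -0.05 (SE 0.13). Kmt2a (MLL1), of the same enzyme group, was at 8.29, 8.54 and 8.76 in controls and at 8.20, 8.16 and 8.06 in high fat pups, -0.39 (SE 0.16, 1.31-fold lower, unadjusted p = 0.0433, adjusted p = 0.345). Its other probe sets were at 0.27 (SE 0.27) and -0.05 (SE 0.23) and did not share that separation. When control replicate 1 was dropped its unadjusted p was 0.0151, and when any other array was dropped it was above 0.05. It was 0.0719 and 0.119 without high fat replicates 1 and 3, and the difference was -0.26 (unadjusted p = 0.139) with the 3' minus 5' covariate. Kmt2b was at -0.20 (SE 0.12) without overlap, Kmt2c, Kmt2d and Kmt2e at -0.03, -0.06 and -0.19, and Setd4 at 0.32 (SE 0.14, unadjusted p = 0.0544, and 0.0337 without high fat replicate 1) without overlap. Kmt5a, Kmt5b and Kmt5c, which methylate histone H4 at lysine 20, were at 0.14, 0.09 and 0.32, the last with control replicate 2 at 7.53 and every other array at 8.38 to 8.57.

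**Figure D3:**
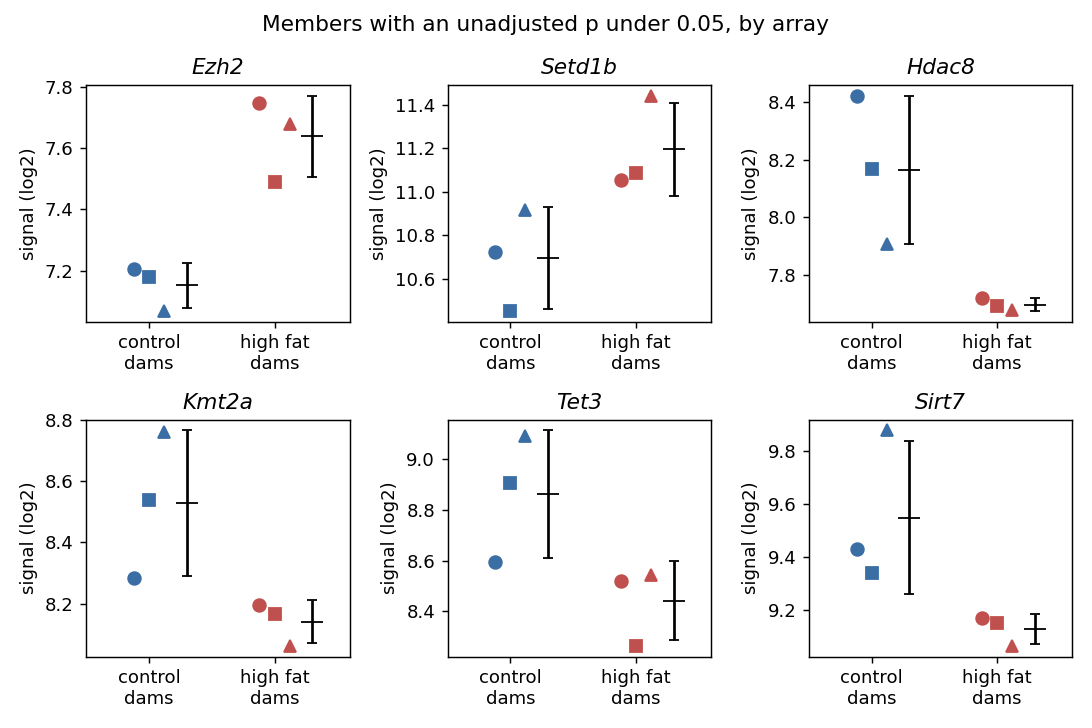
Log2 signal on each array for the 6 members with an unadjusted p under 0.05 (blue, control; red, high fat; circle, square and triangle, replicates 1 to 3), with the group mean and SD in black and a separate vertical scale per gene. In every panel the groups do not overlap; the closest arrays are those of Tet3, 8.54 in high fat replicate 3 and 8.59 in control replicate 1.

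Lysine demethylases had a median of -0.05, 6 higher and 8 lower of 14 (57.1% lower, beside 53.1% of all genes). None was at an unadjusted p under 0.05, beside 14% of all genes. Kdm5a, which removes methyl groups from histone H3 at lysine 4, was at 10.18, 10.26 and 9.68 in controls and at 10.54, 10.40 and 10.42 in high fat pups, 0.42 (SE 0.18, unadjusted p = 0.0568, adjusted p = 0.372). Without control replicate 3, the lowest array, it was at 0.23, and without control replicate 2 at 0.52 (unadjusted p = 0.0375). Its 4 probe sets above the limit were all higher, from 0.21 to 0.42, and in 2 of them the groups did not overlap. Its relative Kdm5b was at -0.18 (SE 0.14), with overlap.

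Kdm5c, the X-linked member of the same family, which escapes X inactivation in mice, was lowest in the array with low Xist. It was at 9.62, 9.60 and 9.58 in controls and at 9.58, 9.33 and 8.89 in high fat pups (-0.34, SE 0.19, adjusted p = 0.482), with high fat replicate 3 lowest. Without that array the difference was -0.15 (unadjusted p = 0.382), and without high fat replicate 1, which carried pancreas transcripts, it was -0.49 (unadjusted p = 0.0361). Its other probe sets were at -0.17 and -0.22, and high fat replicate 3 was lowest in the second of them, at 7.19, and not in the first, at 8.03. The part of sex in this difference was not tested. The X-linked Hdac6 and Hdac8 did not single out that array, at 8.90 and 7.68 beside 8.66 to 8.96 and 7.69 to 7.72 in the other high fat pups.

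The remaining demethylases lay between -0.19 (Kdm2a) and 0.26 (Kdm3a). Kdm3a, a demethylase of histone H3 at lysine 9 known from energy metabolism, was spread in controls, 9.62, 8.87 and 8.57, and tight in high fat pups, 9.19, 9.36 and 9.31 (0.26, SE 0.27). Its difference was 0.56 (unadjusted p = 0.0137) without control replicate 1 and 0.04 without control replicate 3. Kdm1a (LSD1), which removes methyl groups with FAD as a cofactor, was at 9.55, 9.14 and 9.33 against 9.58, 9.76 and 9.32 (0.21, SE 0.17). Kdm6b, which acts on the mark that Ezh2 sets, was at -0.15 (SE 0.16). Kdm4b was at -0.07, with 2 other probe sets at -0.31 (SE 0.17) and -0.35 (SE 0.15). Kdm4d was between 2.07 and 4.32 and was not tested.

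Arginine methyltransferases were higher in 5 of 6 tested, beside 46.9% of all genes, with a median of 0.15. None was at an unadjusted p under 0.05, beside 14% of all genes. Prmt5, the main enzyme of symmetric dimethylation, was at 8.79, 8.31 and 8.92 in controls and at 9.15, 8.76 and 9.02 in high fat pups (0.30, SE 0.20). Prmt7 was the only one without overlap, at 7.91, 7.98 and 7.996 against 8.18, 8.18 and 8.07 (0.18, SE 0.12). Prmt3, which methylates a ribosomal protein, varied most of all members, at 8.21, 7.77 and 7.08 in controls and 8.003, 8.77 and 6.99 in high fat pups, and its difference of 0.23 (SE 0.48) ranged from -0.19 to 0.70 with 1 array left out. Prmt2, Prmt6 and Prmt9 were at -0.17, 0.11 and 0.08. Prmt8, known from brain, was between 0.35 and 3.61 and was not tested.

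Of the 65 members tested, 19 had at least 2 probe sets above the limit. In 11 of these all probe sets had 1 sign, and in 8 the signs were mixed (Crebbp, Kat6a, Kat6b, Kdm5b, Kmt2a, Setd3, Setd5 and Tet3). Kmt2e was the member with the most probe sets, 5, with differences from -0.19 to -0.10 and all overlapping. Tested one by one among 13921 named probe sets, 0 of the 100 probe sets of the members passed limma's adjusted threshold, beside 0.0287% (4) of all. At an unadjusted p under 0.05 there were 6 of these 100 (6%), beside 12.9% of all probe sets.

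**Figure D4:**
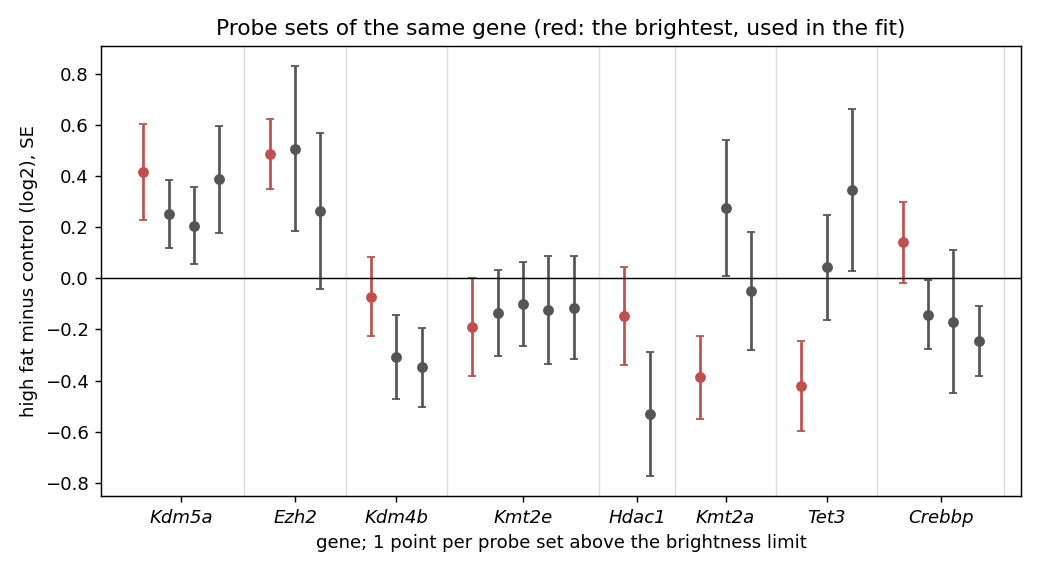
Difference between group means (high fat minus control, log2) with its SE for each probe set above the brightness limit of 8 members; red marks the brightest probe set of a gene. The 4 probe sets of Kdm5a and the 3 of Ezh2 lie above 0, the 5 of Kmt2e below it, and those of Kmt2a, Tet3 and Crebbp on both sides.

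Ezh2 and Dnmt1 are known to be induced in dividing cells, and cell cycle genes also differed between arrays. Of 27 such genes tested 21 were higher in high fat pups and 6 lower, with a median of 0.33, while 46.9% of all genes were higher. At limma's unadjusted p under 0.05, 5 were higher and 1 lower, beside 6.55% and 7.49% of all genes. The median of these genes around the control mean was 0.32, 0.00 and -0.36 in controls and 0.23, -0.33 and 1.03 in high fat pups. Their summed signal was 5408 to 7404 in controls and 7107 to 12781 in high fat pups. Mki67 was at 7.84, 7.14 and 7.74 in controls and at 7.84, 7.93 and 9.01 in high fat pups. Within the high fat group Dnmt1 and this list were both highest in replicate 3 and lowest in replicate 2. Ezh2 was highest of the high fat pups in replicate 1, at 7.74, and not in replicate 3, at 7.68. It was also lowest of them in replicate 2, at 7.49, still above all controls. The same held in every high fat array for the list's Ccnd1 (9.51, 9.69 and 10.46 against at most 8.78) and Ccne2 (7.89, 7.72 and 8.99 against at most 6.93), regulators of entry into the cycle. These had the smallest p of the list. Aurka, also of the list, lay the other way, at 6.74, 6.55 and 7.20 in controls and at 6.54, 5.65 and 6.06 in high fat pups. The part of cell division in these values was not tested.

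Markers of other cell types also differed, none past the adjusted threshold. Endothelial markers were lower in 14 of 14 genes and erythroid markers in 8 of 9, beside 53.1% of all genes. At limma's unadjusted p under 0.05, 9 of 14 endothelial and 3 of 9 erythroid genes were lower, beside 7.49% of all genes. The endothelial median was -0.59, with a summed signal of 22561 to 26278 in controls and 13255 to 17536 in high fat pups. The erythroid median was -0.53, with a summed signal of 40327 to 51018 and 31258 to 41299. Macrophage markers had a median of -0.07 (0 higher and 3 lower of 11 at that unadjusted p) and stellate 0.03 (2 higher and 3 lower of 12). Lymphocyte markers were at -0.12 and neutrophil at 0.11. Cholangiocyte markers had a median of 0.22 over 4 genes, 1 higher and 1 lower at that unadjusted p. Their summed signal over 7 genes was 6334 to 7553 in controls and 4419 to 4987 in high fat pups. That linear sum mainly follows its brightest gene, Cdh1, at -0.82 (SE 0.16). The other 3 genes tested, Krt19 (0.72, SE 0.26), Prom1 (0.35, SE 0.20) and Epcam, were higher in the high fat mean. The part of these cell types in the small differences of the enzymes was not tested.

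**Figure D5:**
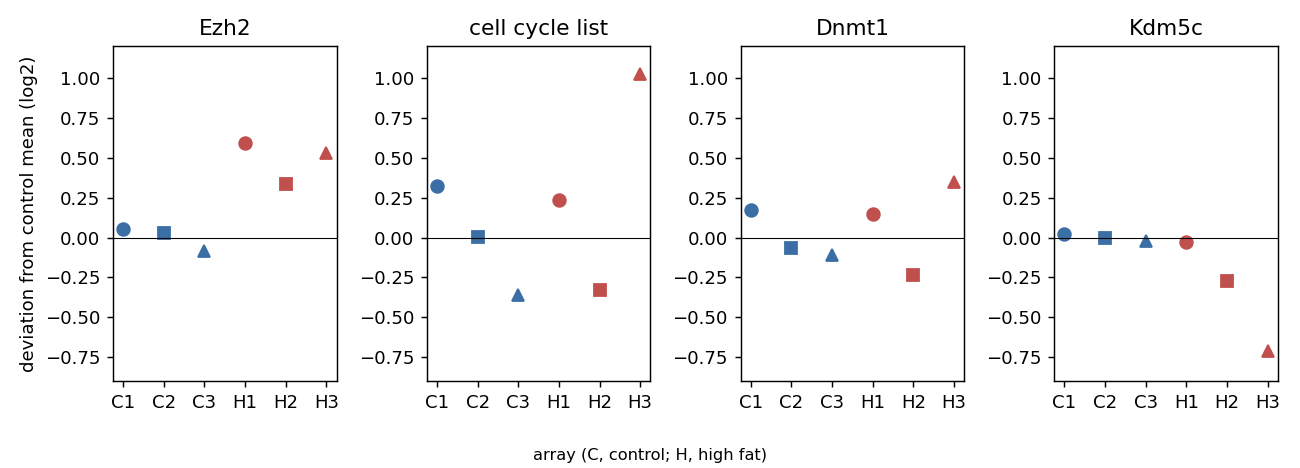
Deviation from the control mean (log2) on each array (C1 to C3, control; H1 to H3, high fat) for Ezh2, the median of 27 cell cycle genes, Dnmt1 and Kdm5c. Ezh2 is above the controls in all high fat arrays, the cell cycle list and Dnmt1 peak in H3, and Kdm5c is lowest in H3, the array with low Xist.

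Partners of these enzymes, from lists fixed with the members, had medians near 0. At an unadjusted p under 0.05, to which all counts in these lists refer, 6.55% of all genes were higher and 7.49% lower. Single genes lay further out than any member, but those named were picked by the smallest p of each list. Of all genes 9.76% reached 1.5-fold. Among 17 methyl-CpG readers and Dnmt partners the median was 0.08, with 0 of them higher but 2 lower at that unadjusted threshold (p under 0.05), Dmap1, a Dnmt1-binding protein (-0.48, SE 0.13), and Apobec1 (-0.43, SE 0.13). Polycomb subunits and other lysine methyltransferases had a median of 0.01, with 2 higher and 3 lower of 32. Setdb2, a silencing methyltransferase of histone H3 at lysine 9, was at 0.91 (SE 0.27), the Polycomb reader Cbx6 at -0.45 (SE 0.14) and Smyd3 at -0.44 (SE 0.14). Deacetylase complexes had a median of -0.04, with 0 higher and 1 lower of 23, the NuRD helicase Chd4 (-0.51, SE 0.13). None of these genes passed limma's adjusted threshold.

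Acetyltransferases and partners outside the symbol pattern had a median of 0.01, with 3 higher and 0 lower of 31. The shares over all genes, for this and the next lists, were 6.55% and 7.49%. The 3 were Gtf3c4 (0.37, SE 0.13), the SAGA subunit Supt3h (0.47, SE 0.18) and Hat1, which acetylates newly made histones (0.55, SE 0.22). Bromodomain readers had a median of 0.00, with 3 higher and 0 lower of 19, Baz2a (0.46, SE 0.15), Baz1a (0.40, SE 0.16) and Atad2 (0.54, SE 0.23). Arginine methylation and demethylase partners had a median of -0.05, with 2 higher and 0 lower of 11, Jmjd1c, of the Kdm3 family (0.50, SE 0.16), and Wdr77, the partner of Prmt5 (0.41, SE 0.16).

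Of the enzymes that supply the cofactors, those named were likewise picked by the smallest p of each list. Counts are at the same unadjusted p, beside 6.55% of all genes higher and 7.49% lower. In the methyl donor list the median was -0.04 with 1 higher and 2 lower of 15: methionine synthase, Mtr, was at 0.58 (SE 0.14), glycine N-methyltransferase, Gnmt, at -0.57 (SE 0.17) and nicotinamide N-methyltransferase, Nnmt, at -1.34 (SE 0.47). In the NAD list the median was -0.09 with 2 higher and 1 lower of 14, the last being Naprt, which makes NAD from nicotinic acid (-0.65, SE 0.19). Among 17 genes of acetyl-CoA and ketoglutarate supply the median was -0.10 with 0 higher and 3 lower, Acss2, which makes acetyl-CoA from acetate (-1.09, SE 0.32), the citrate carrier Slc25a1 (-0.47, SE 0.14) and Idh3g (-0.50, SE 0.16). Targets tied to sirtuins and PGC1 alpha had a median of 0.20, with 2 higher and 0 lower of 12, Ppara (1.29, SE 0.19) and Fgf21 (2.18, SE 0.58). No gene of these lists passed limma's adjusted threshold.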

How the data were processed

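The deposited series matrix values are log2 signals per probe set. Read as base 2, each array has the same 2% trimmed mean on the linear scale (500.2), and 91 to 144 of 31099 probe sets per array were set to 0. Per the labels' protocols, TRIzol RNA went through 3' IVT labelling. Which software made the signals is not given here by the labels or headers. Array quartiles differed by up to 0.22, so the arrays were quantile-normalized without the 57 control probe sets. Of the rest, 20826 named 1 gene; probe sets of several genes, among them the one of Prmt1, were not used. The lowest 40% of probe sets by mean (log2 under 5.83) were left out. The test was limma's (version 3.58.1, R 4.3.3, lmFit, eBayes, 2-sided, Benjamini-Hochberg). It was tried on simulated data with changes larger than that of any member, which does not show how well differences of the members' size are found. Figures used matplotlib 3.10.9. Intervals are limma's 95% intervals.

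Values of every array are given for members at an unadjusted p under 0.05 without overlap of the groups, for members 1.5-fold apart without overlap, and for 19 anchor genes, of which 14 were tested, Dnmt3b and Tet1 were too dim, and Sirt1, Kdm5d and Kdm6a are not reported here; other members were added after their values were seen. Of each partner list up to 3 genes with the smallest p were named; marker lists are given as counts, medians and sums. The members and lists were chosen with earlier results of these data known. Alternatives covered normalization, filter, probe sets, variance model, weights, a replicate block, an RNA integrity covariate and left-out arrays; testing each probe set was added after seeing the data. The labels' sample numbers served as replicate numbers. The number of arrays limits the precision.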

Additional observations from a re-analysis of the deposited data

How the results depend on the processing

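In each setting run, 0 members passed limma's adjusted threshold. The count lower at an unadjusted p under 0.05, 4 as reported, was 1 with the values as deposited, without a brightness filter, with the mean of a gene's probe sets (dim ones included), with the replicate number as a block and with the 3' minus 5' covariate, and 0 to 2 with 1 array left out. The count higher, 2 as reported, was 1 with the mean of probe sets, 4 with a variance trend and 1 to 4 with 1 array left out, with the top value when high fat replicate 1 and the bottom value when replicate 3 was dropped. Both were 0 without high fat replicates 1 and 3 together, where the lone high fat array is assumed to vary like the controls. Ezh2 alone stayed at an unadjusted p under 0.05 with each array left out in turn. It was above 0.05 with the mean of its probe sets, and it was under the limit when the lowest 60% of probe sets were left out. The members' median, -0.04, was 0.013 with the mean of probe sets and -0.044 to 0.0015 with 1 array left out.

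Signs turned with the mean of probe sets for Crebbp (-0.075), Dnmt3a (0.077), Ep300 (0.0089), Kat2b (0.38) and Kmt2a (0.046), with the covariate for Dnmt3a (0.036) and Hdac11 (0.22), and without high fat replicates 1 and 3 for Dnmt1 (-0.24). With 1 array left out the sign turned for 26 of 65 members. Among those given array by array under the rule, Dnmt1 ranged from -0.044 to 0.25, Hdac1 from -0.26 to 0.0034, Hdac3 from -0.29 to 0.0067, Hdac11 from -0.57 to 0.037 and Tet2 from -0.089 to 0.050; the cause was not tested. Deviations of same-numbered arrays correlated at -0.13, -0.13 and -0.14 across genes, and those of other pairs at 0.04 to 0.08. Deviations within a group of 3 sum to 0, so these values cannot decide whether the numbers pair the samples. With the block, 0 genes of all passed the adjusted threshold against 4 without it, and 3 members had an unadjusted p under 0.05.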
